A study of Mus musculus with 6 samples.

Results

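The 34 genes described here encode the enzymes that make purine and pyrimidine nucleotides, from the first steps of ring assembly to the deoxynucleotides used for DNA. They were chosen by gene symbol, as probe sets whose annotation gives exactly 1 symbol from the list, and each gene was read from its probe set with the highest mean over the 6 arrays. In this way 33 of the 34 were measured among 19937 genes in all. The remaining gene, Impdh2, was not analysed here. Gene expression was measured on a whole-transcript mouse gene array in A9M cells, mouse haematopoietic stem and progenitor cells (HSPCs) that express introduced HoxA9 and Meis1, a laboratory model of acute myeloid leukaemia. All cells were grown in medium with serum, IL3, IL6 and SCF, and received either the solvent DMSO (3 arrays) or UNC0638 (3 arrays) for 5 days. UNC0638 inhibits the catalytic activity of the histone H3 lysine methyltransferases G9a and GLP. The labels give no dose, no promoter for the introduced genes and no number of clones, and they do not say that the 3 samples of a group were separate cultures, so the p-values rest on the variation among these 6 samples alone, part or all of which may be technical.

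Nucleotides are made by de novo synthesis, which builds the rings from amino acids, carbon dioxide, one-carbon units and the activated sugar PRPP (phosphoribosyl pyrophosphate), or by salvage, which recovers ready-made bases and nucleosides. Purine rings are assembled on PRPP up to IMP (inosine monophosphate), the branch point to AMP and GMP, whereas the pyrimidine ring is closed first and then joined to PRPP. Ribonucleotide reductase turns ribonucleotides into deoxyribonucleotides, and dividing blood progenitors draw on both routes.

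Median intensities of the 6 arrays lay between 50.4 and 54.9, and the number of arrays limits the precision. All 12 myeloid progenitor markers looked up were measured, with group means between 211 and 6322, and the introduced genes Hoxa9 and Meis1 had group means between 319.9 and 3037. For both lists the sums per array overlapped between the groups. Within the myeloid list, which its brightest genes dominate, Itgam (1018 ± 100.2 to 1405 ± 5.08, SD, n = 3 each, log2 difference 0.46, limma adjusted p = 0.0709) and Csf1r (550.2 ± 82.5 to 793 ± 89.5, 0.52, limma adjusted p = 0.12), markers of more mature myeloid cells, had the largest differences. The stem and progenitor marker Cd34 came next (1615 ± 61.1 to 1957 ± 87.1, 0.27, limma adjusted p = 0.177). Kit (0.033) and Flt3 (0.073) lay just above 0, and Elane, Prtn3, Ctsg and Cebpa lay below 0. Markers of B cells (4 of 5 measured, group means 13.1 to 60.9) and T cells (4 of 5 measured, none above 53.2) were dim. None was at 0, and signal was not told apart from background in this range. The summed level of each list was higher after UNC0638 without overlap. Their sums ran from 128 to 135 and from 140.4 to 144 in DMSO, and from 140.2 to 164 and from 149 to 177 after UNC0638. Of the B cell markers Cd79b had the largest difference (0.35), and Pax5 was at -0.041. The lower quartile of all intensities on an array was also higher, at 20.93 to 21.43 in DMSO and 21.58 to 22.85 after UNC0638. The 3 of 5 erythroid, 4 of 4 fibroblast and 3 of 3 endothelial markers measured had sums that overlapped between the groups. The 4 mast cell markers, all measured, summed to 6177 to 6971 in DMSO and 7838 to 8255 in UNC0638, and 1 of them, Tpsb2, passed the limma test (324 to 531, adjusted p = 0.0164). The 3 of 4 megakaryocyte markers measured summed to 809.5 to 1053 in DMSO and 591 to 803 in UNC0638. Only Pf4 was lower (log2 difference -0.66), while Itga2b (0.21) and Gp9 (0.029) lay above 0. The part of these cell types in the differences of the nucleotide genes was not tested. In such bulk RNA, fewer cells of a type and less RNA per cell cannot be told apart.

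Most nucleotide synthesis genes had lower signals after UNC0638, by small amounts, and none of the 33 passed the test. The model was fitted with limma on log2(intensity + 16) over all 19937 genes, with Benjamini-Hochberg adjustment and a threshold of 0.05, and every difference below is UNC0638 minus DMSO on that scale, which understates changes of dim genes. Of the 33 members 0 were called lower and 0 higher, against 0.301% and 0.371% of all genes. At an unadjusted limma p under 0.05, 14 members were lower and 2 higher, against 6.21% and 6.47% of all genes. In 13 members all UNC0638 arrays lay below all DMSO arrays, and in 2 above, against 7.4% and 9.59% of all genes. Below 0 lay 27 of the 33 differences, against 46.1% of all genes, and their median was -0.19, beside 0.012 over all genes. Adjusted p over the members ran from 0.0804 to 0.985.

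Members were mostly bright on the array, and bright genes as a whole were shifted a little downward. Of the 4984 genes above the 75th percentile of mean intensity, 56.7% lay below 0, with a median difference of -0.035, and 14.4% were lower at an unadjusted limma p under 0.05. In the same range were 26 members, with a median of -0.27, 22 of them below 0 and 14 lower at that p. When the arrays were quantile-normalized, those medians were -0.0061 for the bright genes and -0.25 for the members. This range of brightness was set after the values were seen.

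**Figure D1:**
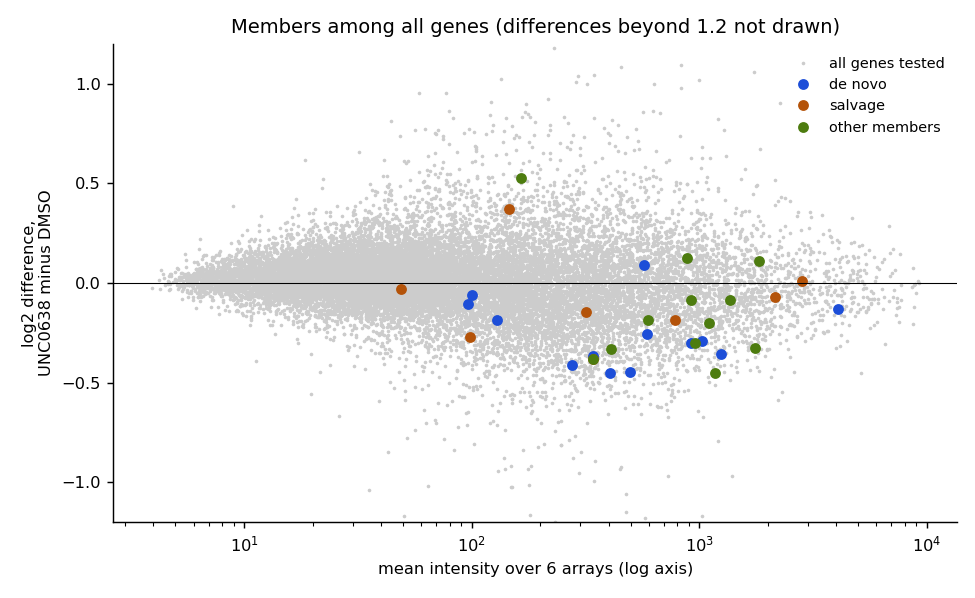
Log2 difference of UNC0638 minus DMSO (vertical) against mean intensity over the 6 arrays (horizontal, log axis) for the genes tested in grey (those beyond the axis are not drawn) and the 33 members in colour (de novo blue, salvage brown, others green). The 27 members below 0 stand mostly among the bright genes, and Rrm2b (0.53) and Dguok (0.37) are the highest members.

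Both PRPP synthetase genes had lower signals on all UNC0638 arrays than on any DMSO array, as had 7.4% of all genes. These enzymes make the activated sugar that de novo synthesis and the salvage of bases both consume. Prps1 had intensities of 1638, 1246 and 1196 in DMSO and 914, 944 and 1093 in UNC0638. The groups did not overlap, although DMSO 1 stood well above the other controls. Its mean went from 1360 ± 242 to 984 ± 95.9 (SD, n = 3 each), a log2 difference of -0.45 (SE 0.13, limma adjusted p = 0.19). Prps2, encoding the second isoform, read 411, 537 and 428 in DMSO and 369.5, 374 and 333 in UNC0638, again without overlap (log2 difference -0.33, SE 0.11, limma adjusted p = 0.258), and its difference without DMSO 2 was -0.22. The interval of each difference lay below 0 at 95% before adjustment, from -0.75 to -0.15 for Prps1 and from -0.59 to -0.076 for Prps2.

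All 6 measured genes of the purine ring pathway had a difference below 0, with a median of -0.33. Of them, 4 were lower at an unadjusted limma p under 0.05, against 6.21% of all genes. Ppat encodes the amidotransferase that commits PRPP to purine synthesis. It read 1465, 1367 and 1366 in DMSO and 1038, 1114 and 1121 in UNC0638. The controls were tight and the groups lay far apart. Its means were 1399 ± 56.6 and 1091 ± 46.3, a log2 difference of -0.35 (SE 0.078, limma adjusted p = 0.0971), which is 1.28-fold lower. Gart encodes a trifunctional enzyme of 3 steps of ring assembly. On the DMSO arrays Gart was at 562, 615 and 551, and on the UNC0638 arrays at 377, 408 and 475. All treated values were below all controls, with UNC0638 3 nearest to them (log2 difference -0.45, SE 0.10, limma adjusted p = 0.105). Adsl, the lyase that acts both in ring assembly and on the way to AMP, had 478, 473 and 453 in DMSO and 339.8, 285 and 397 in UNC0638. The treated arrays spread more widely than the controls and did not reach them (log2 difference -0.45, SE 0.12, limma adjusted p = 0.138). Of the remaining genes, Atic, the enzyme of the last 2 steps to IMP, was at -0.30, with UNC0638 1 (902) above the lowest control (892). Pfas (-0.19) and Paics (-0.13), which act in the middle of the pathway, had overlapping groups, and Paics ran from 3967 to 4589 in DMSO and from 3472 to 4419 in UNC0638.

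The sequences before the starts of Gart and Adsl, the ring pathway genes with the lowest differences, are shown to set their promoters side by side. They are the 250 bases before the RefSeq start (GRCm38.p6), written 5′ to 3′ along the gene, and capitals mark a CCAAT box, a common promoter element bound by NF-Y. The Gart stretch is chr16:91646973-91647222 on the minus strand (68% G and C) and the Adsl stretch chr15:80948240-80948489 on the plus strand (59.2%). A CCAAT box stands 33 bases before the start of Gart, and the Adsl window holds no match to any motif searched.
Gart: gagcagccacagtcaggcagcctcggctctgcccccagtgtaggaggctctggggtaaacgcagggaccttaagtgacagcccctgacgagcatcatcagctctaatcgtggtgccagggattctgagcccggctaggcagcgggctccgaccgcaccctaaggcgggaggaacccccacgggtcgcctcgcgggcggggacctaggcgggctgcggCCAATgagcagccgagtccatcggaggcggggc
Adsl: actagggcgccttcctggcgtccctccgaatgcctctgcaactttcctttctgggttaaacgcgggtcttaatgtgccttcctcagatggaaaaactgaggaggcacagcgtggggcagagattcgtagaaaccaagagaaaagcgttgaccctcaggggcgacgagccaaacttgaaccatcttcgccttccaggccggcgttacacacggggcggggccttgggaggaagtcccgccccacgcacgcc

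**Figure D2:**
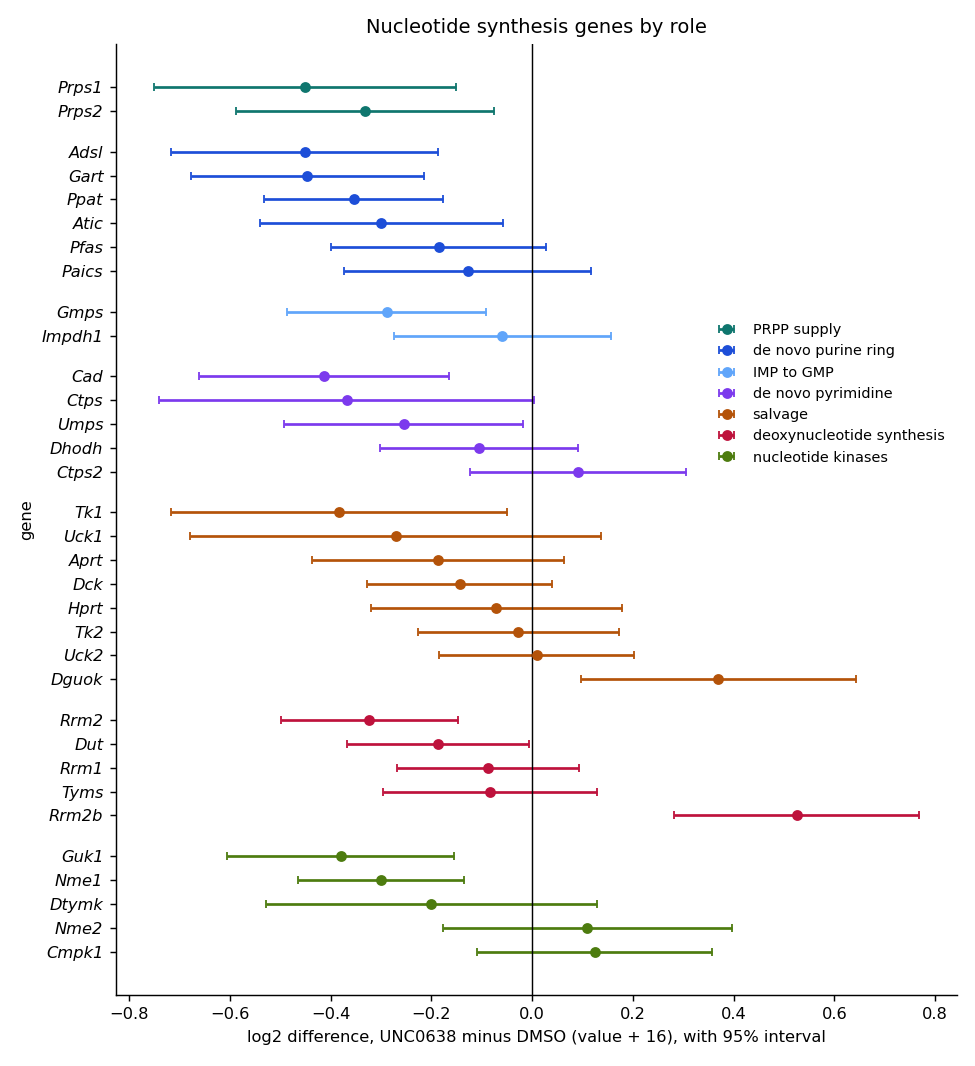
Log2 difference of UNC0638 minus DMSO for each of the 33 members (points) with its 95% interval from limma (bars), grouped and coloured by role. Both PRPP genes and all 6 purine ring genes lie left of 0, and Rrm2b has the only interval besides that of Dguok wholly right of 0.

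On the branch from IMP to GMP, the 2 measured genes both had differences below 0, and neither passed the test. Gmps encodes GMP synthetase, the last step. It was at 1154, 1058 and 1204 in DMSO and at 908, 885 and 994 in UNC0638. All treated values lay below the controls (1138 ± 73.8 to 929 ± 57.3, SD, n = 3 each, log2 difference -0.29, SE 0.087, limma adjusted p = 0.201). Impdh1, one isoform of the enzyme that opens this branch, ran from 92.4 to 114 in DMSO and from 90.4 to 105 in UNC0638, a log2 difference of -0.059 with a 95% interval from -0.28 to 0.16.

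Of the 5 de novo pyrimidine genes, 4 were below 0. At an unadjusted limma p under 0.05, 2 were lower, against 6.21% of all genes. Cad encodes the multifunctional protein of the first 3 steps. Its values were 351, 323 and 276 in DMSO and 223, 259 and 218 in UNC0638, so the groups did not overlap, with DMSO 3 and UNC0638 2 close together. The means were 317 ± 37.8 and 234 ± 22.5 (SD, n = 3 each), a log2 difference of -0.41 (SE 0.11, limma adjusted p = 0.149), or 1.33-fold lower. Umps, which makes UMP, was at -0.26 and did not overlap. Dhodh, the mitochondrial dehydrogenase of the middle step, was at -0.11, with overlap. The CTP synthase genes stood on different sides of 0. Ctps read 345, 403 and 409.9 in DMSO and 229, 293 and 379 in UNC0638 (log2 difference -0.37), where UNC0638 3 lay inside the range of the controls and the difference without UNC0638 1 was -0.20. Ctps2 read 501, 594 and 560.4 in DMSO and 542, 604 and 619 in UNC0638 (0.091), also with overlap.

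Of the 8 salvage genes measured, 6 lay below 0 and 2 above (Dguok, and Uck2 close to 0), and the median was -0.11. At an unadjusted limma p under 0.05, 1 was lower and 1 higher, against 6.21% and 6.47% of all genes. Dguok encodes the mitochondrial deoxyguanosine kinase. It was at 126, 133 and 116 in DMSO and at 202, 149.8 and 150.4 in UNC0638. All treated values lay above the controls, and UNC0638 1 was the highest (125 ± 8.70 to 167 ± 29.9, SD, n = 3 each, log2 difference 0.37, SE 0.12, limma adjusted p = 0.237). Without UNC0638 1 the difference was 0.24. Tk1, the cytosolic thymidine kinase of dividing cells, was at 351, 476 and 337 in DMSO and 277, 339 and 260.3 in UNC0638. UNC0638 2 lay just above the lowest control (log2 difference -0.38, SE 0.15, limma adjusted p = 0.318). Without DMSO 2 its difference was -0.23. Its second probe set gave -0.43. Hprt, which recovers hypoxanthine and guanine with PRPP, had a difference of -0.071 and a 95% interval from -0.32 to 0.18. Aprt, which recovers adenine, was at -0.19, and the deoxycytidine kinase gene Dck at -0.14, the latter without overlap (326 to 341 in DMSO, 279 to 319 in UNC0638). Of the uridine and cytidine kinases, Uck1 was at -0.27 (-0.076 without DMSO 2 and -0.43 without DMSO 1) and Uck2 at 0.0088 with the probe set used, and at -0.045 with its other probe set. The mitochondrial thymidine kinase gene Tk2 was at -0.028. For Uck2, Hprt and Tk2 the sign turned in some of the alternative settings.

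De novo genes were lower than salvage genes relative to their own controls, but not on every array. The median difference was -0.29 over the 13 de novo members and -0.11 over the 8 salvage members, a gap of -0.18. The de novo members were also brighter, with a median DMSO mean of 551.5, beside 360.8 for the salvage members. The part of brightness in this gap was not tested. At an unadjusted limma p under 0.05, 7 of 13 de novo and 1 of 8 salvage members were lower, against 6.21% of all genes. The mean log2 value of the de novo class, relative to its DMSO mean, was -0.30, -0.26 and -0.20 on the UNC0638 arrays and between -0.014 and 0.026 on the DMSO arrays. All treated arrays were below all controls, and the spread within DMSO was small (SD 0.023, n = 3). The salvage class was at 0.0070, -0.068 and -0.20 on the UNC0638 arrays and between -0.050 and 0.088 on the DMSO arrays, with overlap. De novo minus salvage was -0.30 and -0.19 on UNC0638 1 and 2 and 0.0080 on UNC0638 3, against -0.062 to 0.035 in DMSO, so the groups overlapped through UNC0638 3. On that array the salvage class was as low as the de novo class. No p is given for these class means, because the members were chosen with earlier results known.

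**Figure D3:**
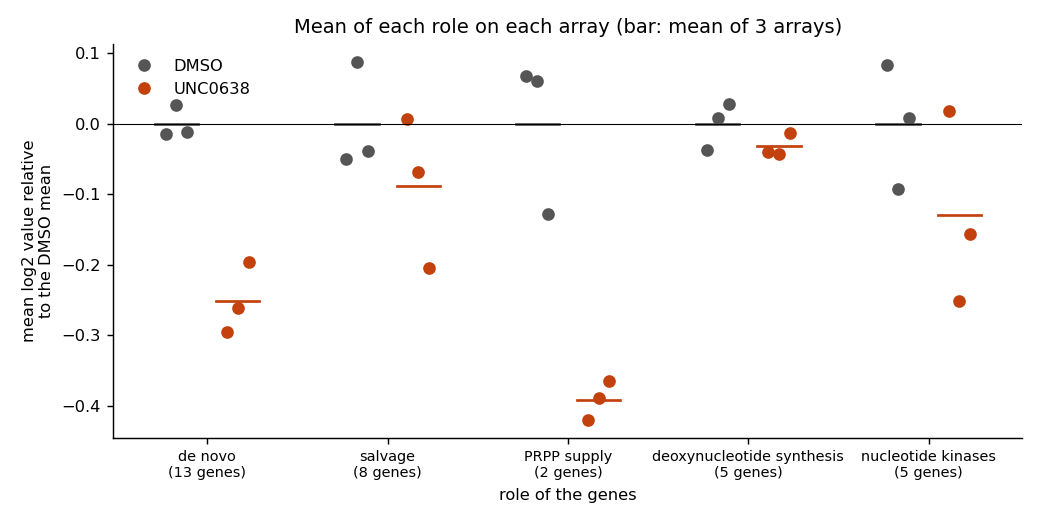
Mean log2 value of each class on each array, relative to the mean of the 3 DMSO arrays (points; bars are means of 3 arrays), for DMSO in grey and UNC0638 in orange. De novo (-0.30 to -0.20) and PRPP supply (-0.42 to -0.37) separate on all arrays, whereas salvage, deoxynucleotide synthesis and the nucleotide kinases overlap.

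Among genes of deoxynucleotide synthesis the small subunits of ribonucleotide reductase stood on opposite sides of 0. Rrm2, the subunit made in S phase, was at 1952, 1941 and 1998 in DMSO and at 1595, 1476 and 1631 in UNC0638. The groups lay far apart compared with their spread (1964 ± 30.4 to 1567 ± 81.3, SD, n = 3 each). The log2 difference was -0.32 (SE 0.077, limma adjusted p = 0.12). Rrm2b, the subunit induced by p53 and used in resting cells, read 111, 141 and 146 in DMSO and 192, 189.6 and 209.7 in UNC0638. All treated values lay above all controls (133 ± 18.7 to 197 ± 11.0), and its difference of 0.53 (SE 0.11, limma adjusted p = 0.0804), 1.44-fold higher, had the lowest p of the 33 members. The large subunit Rrm1 was at -0.088 and the thymidylate synthase gene Tyms at -0.085, both with overlapping groups, and the dUTP-hydrolysing enzyme gene Dut was at -0.19 without overlap (612 to 648 in DMSO, 522 to 585 in UNC0638). The mean of the 5 genes on an array lay between -0.043 and -0.013 in UNC0638 and between -0.037 and 0.028 in DMSO.

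The 250 bases before the start of Rrm2 are shown because it had the lowest difference of this role. They are chr12:24708004-24708253 on the plus strand of GRCm38.p6 from RefSeq, with 72.4% G and C, and capitals mark a CCAAT box that stands 50 bases before the start.
Rrm2: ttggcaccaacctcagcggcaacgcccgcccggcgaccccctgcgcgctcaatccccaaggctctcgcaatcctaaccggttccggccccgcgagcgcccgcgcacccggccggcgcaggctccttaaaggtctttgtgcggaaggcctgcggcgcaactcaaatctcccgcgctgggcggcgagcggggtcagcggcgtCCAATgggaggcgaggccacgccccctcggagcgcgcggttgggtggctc

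Nucleotide kinases add further phosphates to nucleotides, and of 5 measured genes 3 lay below 0 and 2 above. Guk1, the guanylate kinase gene, was at 409.8, 358 and 392 in DMSO and at 329.7, 269 and 283 in UNC0638. All treated values were below the controls (386 ± 26.4 to 294 ± 31.8, SD, n = 3 each, log2 difference -0.38, SE 0.098, limma adjusted p = 0.143). Nme1, a nucleoside diphosphate kinase gene, read 1040.0, 1083 and 1064 in DMSO and 844, 858 and 877 in UNC0638. Both groups were tight, and the gap between them exceeded the range within either (log2 difference -0.30, SE 0.072, limma adjusted p = 0.12). Its neighbour and close copy Nme2 ran from 1628 to 1958 in DMSO and from 1638 to 2226 in UNC0638 (0.11), with overlap. The thymidylate kinase gene Dtymk was at -0.20 (-0.070 without DMSO 1, -0.099 without UNC0638 2 and -0.31 without UNC0638 1) and the UMP and CMP kinase gene Cmpk1 at 0.12, both overlapping. Nme1 and Nme2 are similar in sequence, as are Prps1 and Prps2, so their probes could share signal, and the values of each are uncertain to that extent.

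**Figure D4:**
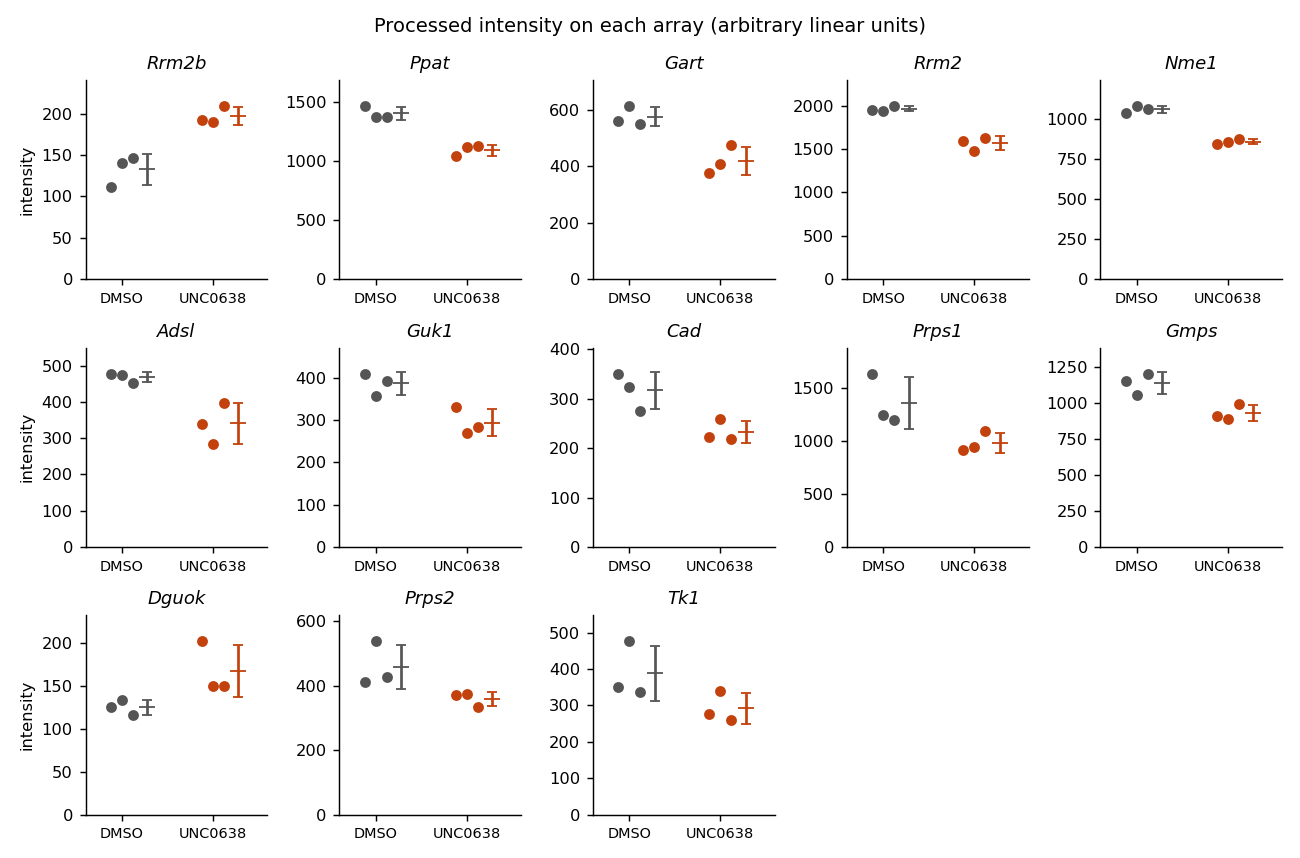
Processed intensity of 13 members on each of the 6 arrays (points, linear axes from 0), with the mean and SD of 3 arrays beside them, DMSO in grey and UNC0638 in orange. The 13 are the 12 members with the smallest p and Tk1, so the separation of their groups partly follows from that choice. In 12 of the 13 the groups do not overlap, and only Rrm2b and Dguok are higher after UNC0638. Of all 33 members, 13 were lower and 2 higher without overlap, against 7.4% and 9.59% of all genes.

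Several enzymes of these pathways exist as related pairs, and 7 pairs were drawn up after the values were seen. The log2 value of the first gene minus the second was taken on each array, relative to its DMSO mean. No test is given, since the pairs were chosen with the values known and an exact permutation test of 3 arrays against 3 cannot go below 0.1. Rrm2 minus Rrm2b was at -0.79, -0.88 and -0.88 on the UNC0638 arrays and between -0.11 and 0.21 in DMSO (mean -0.85). Dck minus Dguok had a mean of -0.51, Ctps minus Ctps2 of -0.46 and Nme1 minus Nme2 of -0.41, and in each of these the groups did not overlap. Tk1 minus Tk2 (-0.36), Uck1 minus Uck2 (-0.28) and Prps1 minus Prps2 (-0.12) overlapped between the groups.

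**Figure D5:**
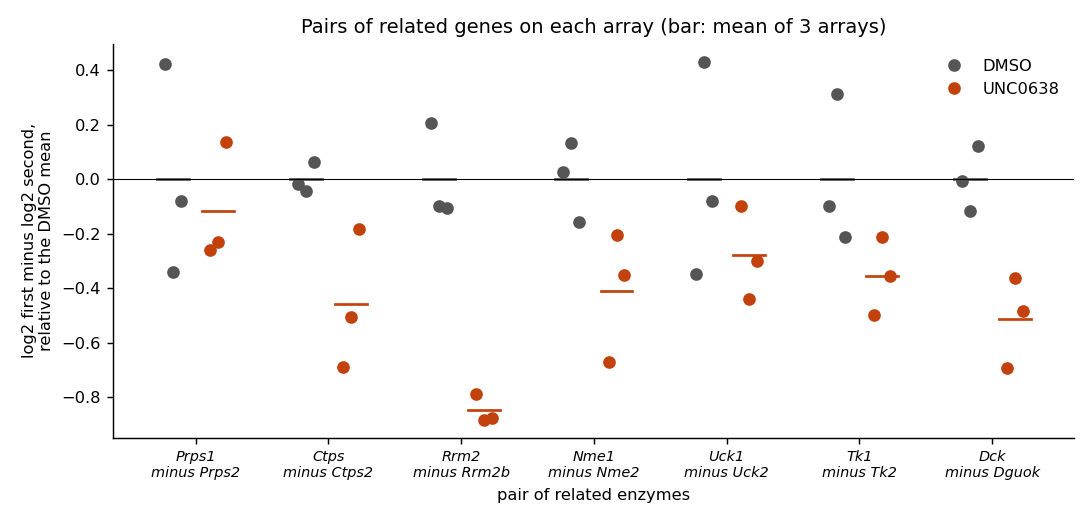
Log2 value of the first gene minus the second for 7 pairs of related enzymes on each array, relative to the mean of the 3 DMSO arrays (points; bars are means of 3 arrays). Rrm2 minus Rrm2b lies furthest from the controls (-0.88 to -0.79), and Prps1 minus Prps2 overlaps them.

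The promoters were searched for motifs because many members were lower together, and the E-box and E2F sites found are printed. RefSeq start windows (GRCm38.p6) matched 30 of the 33 measured members by symbol, and those for Dhodh, Rrm2b and Pfas were not used. The 250 bases before each start were searched on both strands for the E-box CACGTG, bound by MYC, MAX and USF proteins, for CCAAT, and for the E2F consensus in its 4 forms TTTCCCGC, TTTCGCGC, TTTGCCGC and TTTGGCGC. The motifs do not overlap each other at the sites printed. An E-box was found in 5 of 30 members (16.7%), against 8.11% of 15613 tested genes with a window. A CCAAT box was found in 9 members (30.0%, against 38.8%), and the E2F consensus in 1 (3.33%, against 2.88%). A gene with several starts counted once if any window matched. The E-box genes Nme1 (-0.30), Atic (-0.30), Dtymk (-0.20), Paics (-0.13) and Tyms (-0.085) all had differences below 0. So had 27 of all 33 members, and a link between motif and difference was not tested. Nme2 has no match in its windows. Ppat and Paics are neighbours on chromosome 5 that start close together and run in opposite directions, and the 2 E2F matches before Ppat lie within the annotated span of Paics, as the E-box before Paics lies within that of Ppat. Each site stands in up to 30 bases, 5′ to 3′ along its gene, with the motif in capitals, and both E2F matches read as the reverse complement of TTTCCCGC. Nme1 has a further E-box before a second annotated start. The Nme1 site printed is chr11:93968273-93968302 (minus strand), Atic chr1:71557137-71557155 (plus), Dtymk chr1:93802065-93802094 (minus), Paics chr5:76951087-76951116 (plus) and Tyms chr5:30073669-30073698 (minus). The Ppat sites are chr5:76951771-76951800 and chr5:76951718-76951747 (minus).
Nme1 E-box: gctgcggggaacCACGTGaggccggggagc
Atic E-box: ggacctcggggtCACGTGg
Dtymk E-box: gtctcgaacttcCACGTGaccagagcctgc
Paics E-box: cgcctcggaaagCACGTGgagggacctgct
Tyms E-box: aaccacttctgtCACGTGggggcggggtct
Ppat E2F, outer: gagcagaccgcGCGGGAAAaaagggcagtg
Ppat E2F, inner: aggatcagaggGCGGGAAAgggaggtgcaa

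Other genes of nucleotide metabolism were shifted less as a group than the members, and they were dimmer. Their median DMSO mean was 217, beside 633 for the members, and the part of brightness was not tested. Of 46 measured, 0 passed the limma test in either direction, against 0.301% (lower) and 0.371% (higher) of all genes. At an unadjusted limma p under 0.05, 9 were lower (19.6%, against 6.21% of all genes) and 4 higher (8.7%, against 6.47%). Below 0 lay 31 (67.4%, against 46.1%), and the median was -0.064, beside 0.012 over all genes. Dctd, the dCMP deaminase that supplies dUMP for thymidylate, had 978, 747 and 983 in DMSO and 579, 478 and 619.9 in UNC0638. The groups lay apart, and its log2 difference of -0.67 (SE 0.14, limma adjusted p = 0.0801) exceeded that of each of the 33 synthesis genes in size. Over the alternatives its limma adjusted p ran from 0.0401 to 0.224, and it passed with the dimmest 40% of genes left out (0.0436), with the trended and robust prior (0.0416) and with the replicate block (0.0401). Mthfd1l, a mitochondrial enzyme that supplies formate for purine rings, was at 489, 518 and 413 in DMSO and at 315, 348 and 352 in UNC0638 (-0.46, limma adjusted p = 0.0971), without overlap. All 5 measured genes of folate supply lay below 0 (median -0.27), but the median was that of the folate carrier gene Slc19a1, which read 392 on DMSO 1 and 156 and 198 on the other controls. Without DMSO 1 Slc19a1 was at 0.092, 4 of the 5 lay below 0 and the median was -0.20, and without UNC0638 1 the median was -0.18. Of the 5 other nucleotide kinase genes, all below 0 with all arrays and at least 4 without any single array, the mitochondrial Nme4 had the largest difference (-0.23), which was -0.039 without DMSO 2 and -0.37 without DMSO 1. Genes of adenosine and purine turnover were split, with 4 of 9 below 0, and the AMP deaminase gene Ampd3 was at 0.45 (51.9 ± 8.14 to 76.9 ± 9.47, SD, n = 3 each, limma adjusted p = 0.136). Slc29a3, a nucleoside carrier of lysosomes, was at 0.37, the nucleotidase gene Nt5c3 at -0.36 (-0.21 without UNC0638 2 and -0.56 without UNC0638 3) and the PRPP synthetase-associated gene Prpsap1 at -0.19, of which Slc29a3 alone had groups that did not overlap.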

How the data were processed

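RNA of 3 DMSO and 3 UNC0638 samples was hybridised to 1-colour Affymetrix arrays. The authors deposited 1 processed intensity per probe set and array, on a linear scale judging by the values. Background correction, summarisation and scaling by the authors: not given in the sources used here. Such steps can shrink or shift differences. Of 34760 probe sets, 21640 carry 1 gene symbol, 1321 several and 11799 none. Those with 1 symbol gave 19937 genes, 954 of them with more than 1 probe set. Values were transformed as log2(value + 16) and fitted on group alone in limma 3.58.1 (R 4.3.3) with eBayes over all 6 arrays. The procedure was tested on simulated data. A high rate of detection was required there only of changes larger than any seen in the members, so smaller changes may go uncalled. Figures were drawn with matplotlib 3.10.9.

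The members and lists were chosen with earlier results of these data known. As no member passed the threshold, all array values are given for the 12 members with the smallest p and for the member with the largest absolute difference in each role, 13 in all, and other members by difference or range. Of the related genes, the one with the largest absolute difference in each list is named, 7 in all. The alternatives were other scalings, pseudocounts, filters, probe set rules, priors, class limits and thresholds, a replicate block, array weights and each array left out.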

Additional observations from a re-analysis of the deposited data

How the results depend on the processing

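Over the 15 alternatives to the limma fit, 0 of the 33 members passed an adjusted p of 0.05 and 28 kept their sign in all. At a threshold of 0.1, 1 member was lower (Ppat) and 1 higher (Rrm2b). Between 10 and 14 members were lower at an unadjusted p under 0.05 when each array was left out. The difference of 21 of the 33 members moved by over 1.5 times without at least 1 array. Sign changes were limited to Uck2 (-0.037 with median centring, -0.018 with the mean of its probe sets, -0.030 to 0.075 without each array), Hprt (-0.15 to 0.0053), Impdh1 (-0.12 to 0.0063), Tk2 (-0.067 to 0.046) and Nme2 (-0.0080 to 0.21), the last 4 only without single arrays. Centring each array on its median moved the members' median to -0.23 and that of the de novo class to -0.33. Without each array in turn these medians ran from -0.24 to -0.18 and from -0.28 to -0.25, the salvage median from -0.16 to -0.071 and the gap between the classes from -0.18 to -0.11. Over all genes, 74 higher and 60 lower calls became 32 and 17 with a pseudocount of 64, 43 and 30 with the replicate block, and 7 to 41 and 3 to 31 without each array, whichever of the 6 was left out. Rises were 55.2% of calls, and 43.5% after median centring. Among related genes 1 (Dctd) passed with the filter on dim genes, the trended and robust prior or the replicate block. Arrays that share a number deviated together with correlations of -0.066, 0.11 and 0.017, and arrays with unlike numbers with -0.13 to 0.11. With 3 arrays per group these values cannot exclude a pairing. The replicate block left 0 members called, as the main fit did.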

Other observations

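Among the related genes outside the naming rule, picked after their values were seen, Gda, which deaminates guanine, was at 1406, 1315 and 1318 in DMSO and at 1684, 1777 and 1718 in UNC0638 (log2 difference 0.36, limma adjusted p = 0.0884). Itpa, which hydrolyses ITP and other faulty purine nucleotides, went the other way, from 99.0, 103 and 97.7 in DMSO to 71.2, 69.8 and 80.1 in UNC0638 (log2 difference -0.37, limma adjusted p = 0.0921). Dctpp1, which hydrolyses dCTP, was at -0.42, and Shmt1, the cytosolic serine hydroxymethyltransferase, at -0.34, each without overlap between the groups. The interferon-induced nucleotide kinase gene Cmpk2 was at -0.097 with overlapping groups, and the dNTP hydrolase gene Samhd1 at 0.13 without overlap. None of these passed the limma test.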
